A study of Mus musculus with 26 samples.

Results

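The 8 genes described here are Cd36, Fabp5, Fabp7, Angptl4, Cpt1a, Acadl, Acacb and Pdk4, a set of mouse genes for fatty acid uptake, transport and oxidation that includes known targets of the peroxisome proliferator-activated receptors (PPARs). They were chosen by name, with their Ensembl identifiers (ENSMUSG00000002944, ENSMUSG00000027533, ENSMUSG00000019874, ENSMUSG00000002289, ENSMUSG00000024900, ENSMUSG00000026003, ENSMUSG00000042010 and ENSMUSG00000019577, in that order) matched to mouse symbols, from the 39179 genes counted in each library. All 8 were among the 16325 genes that passed the filter on low counts and were tested. The choice of these 8 was made with earlier results of these data known. RNA was sequenced from the cortex of C57BL/6J mice, an inbred laboratory strain, taken 3 days after an experimental stroke and holding the stroke core with a rim of neighbouring tissue, or from mice given a sham operation. The diets drew 60% (high-fat) or 6% (control) of their calories from fat and were fed for 6 or 15 weeks. The groups at 15 weeks were high-fat stroke (6 libraries) and control-diet stroke (4 libraries). At 6 weeks they were high-fat stroke (6 libraries), control-diet stroke (4), high-fat sham (3) and control-diet sham (3). All mice were of the same strain with no allele or drug named, no sham library of the 15-week diet was analysed here, and neither age, body weight nor infarct size entered the comparisons.

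Fatty acids enter cells with the help of membrane proteins such as the scavenger receptor CD36, are carried through the cytosol by fatty acid binding proteins, and are burned in mitochondria after the carnitine shuttle has moved them across the mitochondrial membranes. The PPARs are nuclear receptors that are activated by fatty acids, pair with retinoid X receptors on a repeated DNA element, and raise the transcription of genes for uptake, storage and oxidation. In the brain, neurons draw mainly on glucose, astrocytes oxidise some fatty acids, CD36 is known on microglia, macrophages and endothelium, and after a stroke phagocytes take up lipid-rich debris.

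RefSeq promoter sequences of build GRCm38.p6, each running from 250 bases before to 50 bases after a transcription start, were at hand for 6 of the 8 genes: Cd36, Fabp7, Cpt1a, Acadl, Acacb and Pdk4. Of these, 4 are printed 5′ to 3′ on the gene's own strand. The first 3 belong to genes that were called higher after stroke and hold the PPAR half-site. The window of Pdk4, a classical PPAR target that was also called higher in high-fat stroke, holds no half-site. Acadl, not printed, was called higher there too without a half-site, whereas Acacb holds the half-site and was not called. Capitals mark the half-site AGGTCA, which appears here as TGACCT because each match lies on the opposite strand, and in Cd36 also the stretch closest to a complete PPAR response element.
Cd36 (chr5:17835847-17836146, minus strand): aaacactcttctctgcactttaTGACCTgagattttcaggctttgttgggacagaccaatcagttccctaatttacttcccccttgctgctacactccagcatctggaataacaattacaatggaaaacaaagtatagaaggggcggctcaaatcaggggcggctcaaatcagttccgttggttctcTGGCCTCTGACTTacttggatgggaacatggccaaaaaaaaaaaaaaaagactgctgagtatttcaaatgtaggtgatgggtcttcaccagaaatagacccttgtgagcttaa
Fabp7 (chr10:57784673-57784972, plus strand): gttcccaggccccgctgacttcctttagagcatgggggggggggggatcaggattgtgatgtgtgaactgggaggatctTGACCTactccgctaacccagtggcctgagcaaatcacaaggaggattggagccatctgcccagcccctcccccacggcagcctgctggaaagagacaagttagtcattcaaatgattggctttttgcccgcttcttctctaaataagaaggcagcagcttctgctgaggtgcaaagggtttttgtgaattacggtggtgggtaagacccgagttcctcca
Cpt1a (chr19:3323051-3323350, plus strand): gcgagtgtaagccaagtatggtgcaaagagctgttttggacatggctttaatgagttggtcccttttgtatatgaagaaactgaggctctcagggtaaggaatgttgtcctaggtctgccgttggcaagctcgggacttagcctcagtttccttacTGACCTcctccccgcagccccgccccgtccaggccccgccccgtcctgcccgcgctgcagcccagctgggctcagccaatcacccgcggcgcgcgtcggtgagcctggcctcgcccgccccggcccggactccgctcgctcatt
Pdk4 (chr6:5496229-5496528, minus strand): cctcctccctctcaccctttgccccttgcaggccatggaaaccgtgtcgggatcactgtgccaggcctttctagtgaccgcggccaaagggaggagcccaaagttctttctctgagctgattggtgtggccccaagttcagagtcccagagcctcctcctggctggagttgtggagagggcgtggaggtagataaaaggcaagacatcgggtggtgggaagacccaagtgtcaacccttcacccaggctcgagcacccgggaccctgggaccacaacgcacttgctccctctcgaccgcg
The complete element was searched on both strands as 2 copies of AGGTCA with 1 base of any kind between them. No exact copy lay in any of the 6 promoters, against 0.0399% of 32544 distinct mouse promoters of the same length. With up to 2 mismatches, a match lay in the Cd36 promoter only, starting at -63 from the transcription start (TGGCCTCTGACTT on the gene's strand), while 3.87% of all promoters held such a match. The half-site AGGTCA lay on the opposite strand in 4 of the 6, starting at -228 in Cd36, -171 in Fabp7, -94 in Cpt1a and 44 in Acacb (in bases from the transcription start), and 16.2% of all promoters held one. In Cd36 the half-site and the near-complete element did not overlap. The glucocorticoid response element, AGAACA and TGTTCT with 3 bases of any kind between them, had no match in any of the 6 promoters, exact or with up to 2 mismatches, against 0.00922% and 1.83% of all promoters. These matches describe the letters of these windows and are not measured binding sites.

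Each library held between 11400882 and 16962682 counts in genes. Levels are given as CPM, the usual measure of a gene's counts scaled to the library's total, with totals adjusted by the trimmed mean of M-values (TMM), and differences as log2 fold changes with their standard error (SE) from edgeR's quasi-likelihood test. A gene was called when its Benjamini-Hochberg adjusted p over all 16325 tested genes was under 0.05. Markers of excitatory neurons, the main neurons of cortex, summed to between 4086 and 7044 CPM, and markers of microglia and macrophages were detected in all libraries. One high-fat stroke library of the 6-week arm (replicate 6) and 1 high-fat sham library (replicate 2) stood apart with 1555 and 665 CPM of choroid plexus markers, against 258 to 459 CPM in the other 24. At 15 weeks, 1 high-fat stroke library (replicate 1) and 1 control stroke library (replicate 3) had the lowest microglia and macrophage marker sums of all stroke libraries, 404 and 456 CPM. The labels do not say that libraries come from separate animals, so p-values measure only the spread between these libraries.

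After stroke on the high-fat diet at 6 weeks, 7 of the 8 genes rose relative to sham: Cd36 9.94-fold, Fabp7 5.36-fold, Angptl4 3.20-fold, Fabp5 1.95-fold, Cpt1a 1.60-fold, Acadl 1.46-fold and Pdk4 1.41-fold. Acacb, at 1.14-fold, did not pass the test. On the control diet 2 of the 8 rose, Cd36 (5.38-fold) and Fabp7 (5.15-fold), and the other 6 did not pass. The uptake receptor and the brain-type carrier had the largest fold changes on both diets, and the enzymes of oxidation moved by smaller steps. Of all tested genes, 23.1% were called between high-fat stroke and its shams, and 7.68% between control-diet stroke and its shams. The median log2 fold change on the high-fat diet was 0.82 over the 8 genes and -0.02 over all tested genes. With the control diet the medians were 0.39 over the 8 genes and 0.00 over all tested genes. Because the 8 genes were chosen with earlier results of these data known, these counts and medians describe them and do not test the set.

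**Figure D1:**
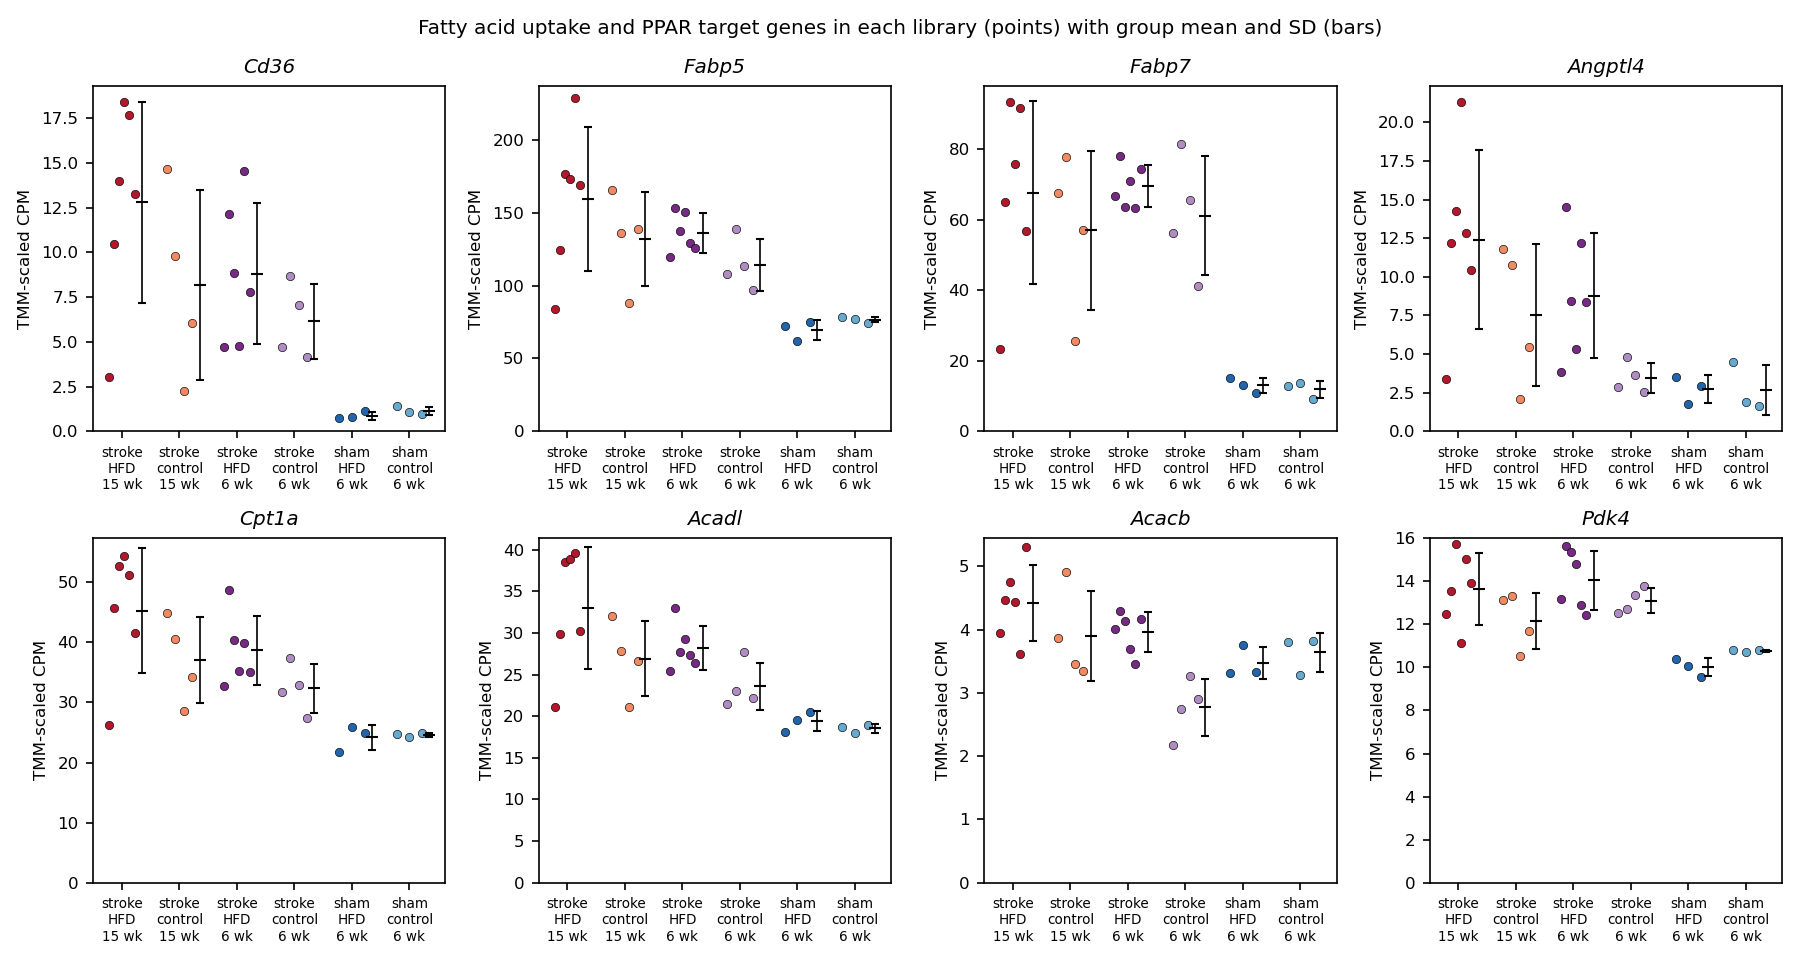
TMM-scaled CPM of each of the 8 genes (vertical axes, each starting at 0) in every library (points), with the group mean and SD (bars), for 6 groups of 3 to 6 libraries. Cd36 and Fabp7 are higher in every stroke library than in every sham library, whereas Acacb is lowest in 6-week control stroke and its other groups overlap.

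The plot of the 8 genes by library shows the level in each group. Cd36, the scavenger receptor that binds and takes up long-chain fatty acids and oxidised lipids, had the widest range of the 8 genes, with 3.50 log2 units between its highest and lowest group. In 6-week stroke libraries on the high-fat diet its level was between 4.72 and 14.6 CPM with a median of 8.32 CPM, against 0.720, 0.780 and 1.13 CPM in sham libraries on that diet. Control-diet stroke libraries had 4.15, 4.71, 7.04 and 8.66 CPM, against 0.971, 1.05 and 1.38 CPM in sham libraries. Every stroke library thus lay above every sham library on both diets, and the stroke libraries were more spread out than the sham libraries. The log2 fold change was 3.31 ± 0.64 (SE) on the high-fat diet (95% interval 1.98 to 4.64, adjusted p = 0.00112 by edgeR) and 2.43 ± 0.64 on the control diet (interval 1.10 to 3.76, adjusted p = 0.0244). The sham values rest on 10 to 20 counts per library. The call on the control diet was lost in 5 of 7 fits that left out 1 library: without stroke replicates 2 or 3 the adjusted p was 0.0821 and 0.0555, and without sham replicates 1, 2 or 3 it was 0.0832, 0.0971 and 0.100. It was also lost with no filter on low counts (0.0582), and over these 6 fits the log2 fold change was between 2.20 and 2.59. In bulk tissue such as this, more cells of a type and more RNA per cell cannot be told apart.

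Fabp7, the fatty acid binding protein of the brain, is known from radial glia, astrocytes and oligodendrocyte precursors. It had between 63.3 and 78.0 CPM with a median of 69.0 CPM in 6-week high-fat stroke libraries, against 10.8, 13.05 and 15.1 CPM in sham libraries on the same diet. In stroke on the control diet its level was 41.1, 56.3, 65.6 and 81.4 CPM, against 9.26, 12.7 and 13.6 CPM in sham libraries. The groups did not overlap on either diet, and the high-fat stroke libraries were the more tightly grouped of the 2 stroke groups. Its log2 fold change was 2.42 ± 0.37 on the high-fat diet (adjusted p = 2.89e-04) and 2.37 ± 0.39 on the control diet (adjusted p = 0.00289). It was the only one of the 8 genes called on both diets in every fit that left out a library.

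Fabp5, the epidermal-type carrier that is also found in microglia, macrophages and endothelium and passes ligands to PPARs, changed less. In 6-week high-fat stroke libraries it had between 119.8 and 154 CPM with a median of 134 CPM, against 62.1, 72.3 and 75.1 CPM in sham libraries. In control-diet stroke libraries the levels were 97.1, 108, 113 and 139 CPM, against 74.7, 76.9 and 78.5 CPM in sham libraries. Every stroke library was again above every sham library on its diet, although only the high-fat difference was called. The log2 fold change was 0.97 ± 0.22 on the high-fat diet (adjusted p = 0.00315) and 0.58 ± 0.23 on the control diet (interval 0.11 to 1.05, adjusted p = 0.121). The control difference passed when only the 6-week control groups were fitted (adjusted p = 0.00569) and with voom quality weights (0.00827). Fabp5 has 5 near-identical gene copies in the annotation, which together could draw reads from it. The copies held 0, 1, 3, 22 and 101 counts over all 26 libraries, against 46539 for Fabp5. Fragments that align to several places are listed apart from the genes in the deposited tables. These counts therefore cannot show how many reads of Fabp5 were set aside in that way.

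Angptl4 encodes a secreted inhibitor of lipoprotein lipase and is a target of PPARs, glucocorticoids and hypoxia. It had between 3.82 and 14.5 CPM with a median of 8.39 CPM in 6-week high-fat stroke libraries, against 1.77, 2.90 and 3.53 CPM in sham libraries. Among libraries on the control diet, those after stroke had 2.57, 2.88, 3.61 and 4.78 CPM, against 1.62, 1.89 and 4.50 CPM in sham libraries. High-fat stroke lay above its shams in every library, while control stroke and control sham overlapped. The log2 fold change was 1.68 ± 0.55 on the high-fat diet (interval 0.53 to 2.83, adjusted p = 0.0323) and 0.38 ± 0.61 on the control diet (interval -0.88 to 1.64, adjusted p = 0.765). The high-fat call was lost without stroke replicates 2 or 5 (adjusted p 0.0709 and 0.0584), without sham replicates 1, 2 or 3 (0.0571, 0.149 and 0.0867), with no filter on low counts (0.0694) and without the 2 libraries high in choroid plexus markers (0.166). Over these 7 fits its log2 fold change was between 1.46 and 1.91.

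**Figure D2:**
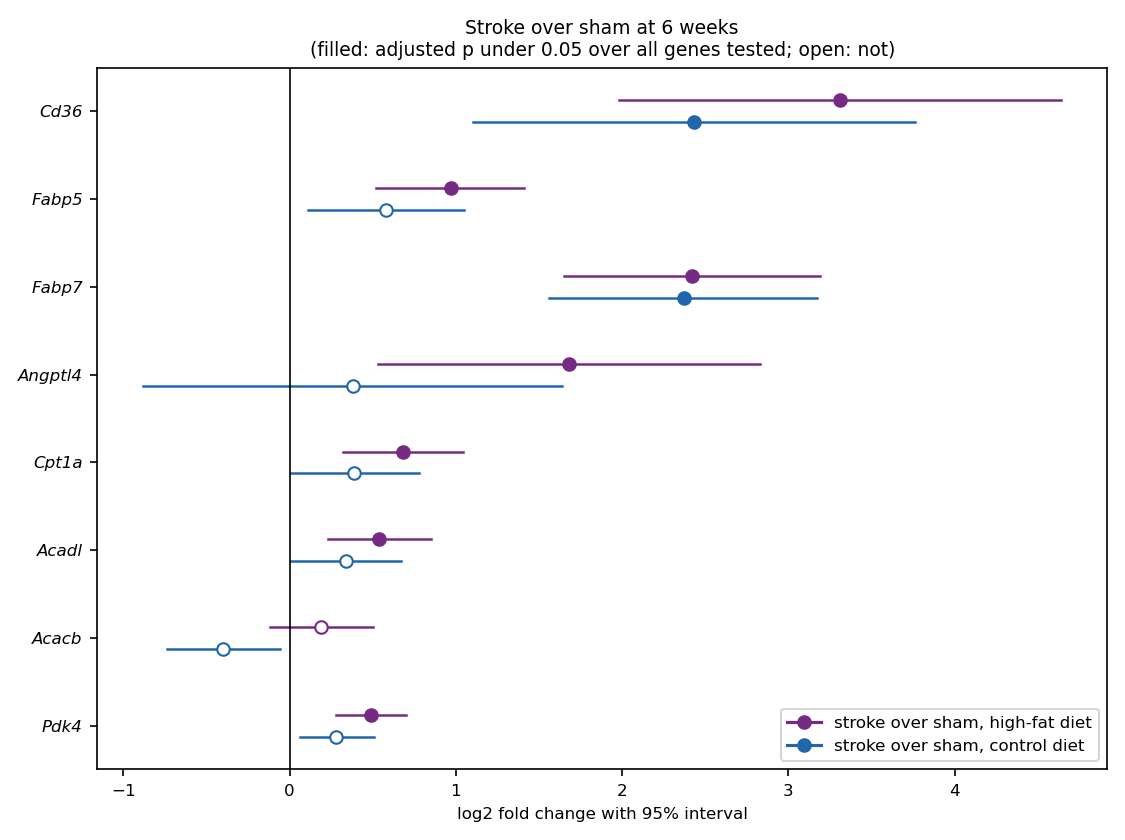
Log2 fold change of stroke over sham at 6 weeks (horizontal axis) for each of the 8 genes, on the high-fat diet (upper of each pair) and the control diet, with 95% intervals. Filled points passed an adjusted p of 0.05 over all tested genes: all but Acacb in the high-fat pair, and Cd36 and Fabp7 in the control pair.

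Among the genes of mitochondrial oxidation, Cpt1a encodes the liver-type carnitine palmitoyltransferase, the step that commits long-chain fatty acids to the mitochondrion, and is the form found in glia. It had between 32.8 and 48.8 CPM with a median of 37.6 CPM in 6-week high-fat stroke libraries, against 21.8, 24.8 and 25.9 CPM in sham libraries. Control-diet stroke libraries had 27.5, 31.7, 32.9 and 37.3 CPM, against 24.3, 24.7 and 24.9 CPM in sham libraries. The groups did not overlap on either diet, but the lowest control stroke library was close to its shams. The log2 fold change was 0.68 ± 0.17 on the high-fat diet (adjusted p = 0.00728) and 0.39 ± 0.19 on the control diet (adjusted p = 0.200). Without high-fat sham replicate 1 the high-fat log2 fold change was 0.61 with an adjusted p of 0.0512. The control difference passed with only the 6-week control groups fitted (0.39, adjusted p = 0.0168) and with voom quality weights (0.38, adjusted p = 0.0477).

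Acadl, the long-chain acyl-CoA dehydrogenase that acts early in the beta-oxidation spiral, followed the same order at lower amplitude. It had between 25.4 and 33.0 CPM with a median of 27.6 CPM in 6-week high-fat stroke libraries, against 18.2, 19.5 and 20.5 CPM in sham libraries. In stroke on the control diet its level was 21.5, 22.2, 23.1 and 27.7 CPM, against 18.0, 18.7 and 19.0 CPM in sham libraries. No stroke library fell into the range of its shams. The log2 fold change was 0.54 ± 0.15 on the high-fat diet (adjusted p = 0.0110) and 0.34 ± 0.16 on the control diet (adjusted p = 0.195). The high-fat call was lost without sham replicates 1 or 2, at log2 fold changes of 0.50 and 0.55 (adjusted p 0.0626 and 0.0566), and without the 2 libraries high in choroid plexus markers, at 0.58 (adjusted p = 0.0607). With only the 6-week control groups fitted the control difference passed, at 0.34 (adjusted p = 0.0345). In the annotation Acadl is overlapped by 1 gene on its own strand and 1 on the opposite strand, and Acacb by 1 on the opposite strand, so some of their reads could belong to those genes, since the strand setting of the counting is not given in the sources used here.

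Pdk4, a kinase that switches off the pyruvate dehydrogenase complex and so spares glucose when fatty acids are burned, had the narrowest span of group means of the 8 genes, 0.48 log2 units. It had between 12.4 and 15.6 CPM with a median of 14.01 CPM in 6-week high-fat stroke libraries, against 9.55, 10.1 and 10.4 CPM in sham libraries. In control-diet stroke libraries the levels were 12.5, 12.7, 13.4 and 13.8 CPM, against 10.7, 10.8 and 10.8 CPM in sham libraries. Stroke libraries were above sham libraries on both diets with no overlap. The log2 fold change was 0.49 ± 0.10 on the high-fat diet (adjusted p = 0.00158) and 0.28 ± 0.11 on the control diet (adjusted p = 0.112). The control difference passed with voom quality weights, at 0.28 (adjusted p = 0.0467).

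Acacb encodes acetyl-CoA carboxylase 2, which makes malonyl-CoA at the mitochondrion and so inhibits CPT1. It was the gene that did not follow the others. It had between 3.46 and 4.29 CPM with a median of 4.07 CPM in 6-week high-fat stroke libraries, against 3.31, 3.33 and 3.76 CPM in sham libraries, and these ranges overlapped. Among libraries on the control diet, those after stroke had 2.18, 2.74, 2.90 and 3.26 CPM, against 3.29, 3.80 and 3.82 CPM in sham libraries, so every stroke library was below every sham library, as held for 11.6% of all tested genes in that direction. Neither difference was called: the log2 fold change was 0.19 ± 0.15 on the high-fat diet (adjusted p = 0.381) and -0.40 ± 0.16 on the control diet (interval -0.74 to -0.06, adjusted p = 0.135). With voom quality weights the control difference was -0.44 with an adjusted p of 0.0409. These levels rest on 31 to 72 counts per library in 6-week stroke and sham samples.

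Counted as groups that do not overlap, 7 of the 8 genes were higher in stroke on the high-fat diet (all but Acacb), where 15.8% of all tested genes did so. On the control diet 6 of the 8 were higher (all but Angptl4 and Acacb), where 14.9% of all tested genes did so. With genes chosen after earlier results were known, these counts do not test the set either. Whether the response to stroke differs between diets was tested as surgery by diet at 6 weeks. None of the 8 genes passed, 0% of all tested genes were called, and 914 of the 16325 were under an unadjusted p of 0.05 (DESeq2 and voom with quality weights called 1 gene each, which was none of the 8). The difference of log2 fold changes was above 0 for all 8 genes, between 0.06 for Fabp7 and 1.30 ± 0.82 for Angptl4. Acacb had the smallest unadjusted p of the 8, 0.0136, at a difference of 0.59 ± 0.22 (interval 0.13 to 1.05, adjusted p = 0.832). For Cd36 the difference was 0.88 ± 0.94, with an interval of -1.07 to 2.84, so a larger or a smaller response on the high-fat diet both lie within its error.

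Diet in mice with stroke was compared at each duration. At 6 weeks all 8 genes had higher means on the high-fat than on the control diet, by log2 differences between 0.10 for Pdk4 and 1.34 for Angptl4, and none passed the test (adjusted p between 0.667 and 0.844). At 15 weeks all 8 were again higher on the high-fat diet, by between 0.17 for Pdk4 and 0.72 for Angptl4, and none passed (adjusted p between 0.606 and 0.810). In both comparisons 0% of all tested genes were called, with 1141 genes at 6 weeks and 1299 at 15 weeks under an unadjusted p of 0.05. DESeq2 called 0 and 10 genes at 6 and 15 weeks and voom 0 and 0, none of them among the 8. The 2 comparisons share no library, and 29.7% of all tested genes were also above 0 in both. The 8 genes were chosen with earlier results of these data known, and several of them were highest or lowest in the same libraries. Their shared direction is therefore not 8 separate observations.

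Acacb had the smallest p of the 8 at 6 weeks. Its mean was 3.96 ± 0.32 CPM (SD, 6 libraries) on the high-fat diet and 2.77 ± 0.45 CPM (SD, 4 libraries) on the control diet, with every high-fat library above every control library, which held for 1.04% of all tested genes in that direction. The log2 difference was 0.52 ± 0.14 (interval 0.23 to 0.81, unadjusted p = 0.00101, adjusted p = 0.667). At 15 weeks its levels were between 3.61 and 5.30 CPM with a median of 4.45 CPM on the high-fat diet, against 3.34, 3.46, 3.87 and 4.90 CPM on the control diet, and the groups overlapped. The difference there was 0.18 ± 0.13 (interval -0.10 to 0.46).

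Angptl4 averaged 8.77 ± 4.05 CPM on the high-fat diet and 3.46 ± 0.98 CPM on the control diet at 6 weeks (SD). The lowest high-fat library, at 3.82 CPM, lay below the highest control library, at 4.78 CPM. Its log2 difference had an interval of 0.34 to 2.34 and an unadjusted p of 0.0109, with an adjusted p of 0.667. At 15 weeks it had between 3.37 and 21.3 CPM with a median of 12.5 CPM on the high-fat diet, against 2.09, 5.44, 10.7 and 11.8 CPM on the control diet, and the interval of the difference was -0.21 to 1.64.

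For Cd36 at 15 weeks the high-fat libraries had between 3.04 and 18.4 CPM with a median of 13.6 CPM, against 2.25, 6.03, 9.81 and 14.7 CPM in the control libraries. The ranges overlapped almost fully, and the log2 difference was 0.64 ± 0.43 (interval -0.24 to 1.53) at 15 weeks and 0.52 ± 0.44 (interval -0.38 to 1.43) at 6 weeks. Fabp7 also overlapped at 15 weeks, with levels between 23.4 and 93.4 CPM with a median of 70.3 CPM on the high-fat diet, against 25.6, 57.2, 67.5 and 77.8 CPM in control-diet libraries. Fabp7 had the smallest ratio of difference to error at 6 weeks, 0.19 ± 0.29, and a difference of 0.25 ± 0.29 at 15 weeks. Fabp5 had between 83.9 and 229 CPM with a median of 172 CPM in 15-week high-fat libraries, against 88.4, 137, 139 and 166 CPM in control-diet libraries. Its 4 highest high-fat libraries were above every control-diet library, and its lowest was below all of them. Cpt1a had between 26.3 and 54.4 CPM with a median of 48.5 CPM in high-fat libraries, against 28.5, 34.2, 40.5 and 44.9 CPM in control-diet libraries. Acadl had between 21.1 and 39.6 CPM with a median of 34.4 CPM in high-fat libraries, against 21.1, 26.6, 27.9 and 32.0 CPM in control-diet libraries. For both genes the ranges overlapped, and the 3 highest libraries were high-fat ones. Pdk4 had between 11.1 and 15.7 CPM with a median of 13.7 CPM in high-fat libraries, against 10.5, 11.7, 13.1 and 13.3 CPM in control-diet libraries. Its ranges overlapped too. The intervals of Fabp5, Cpt1a, Acadl and Pdk4 were narrower, and their upper ends at 15 weeks were 0.66, 0.61, 0.57 and 0.35. Acadl alone was under an unadjusted p of 0.05 at 15 weeks (difference 0.30 ± 0.13, unadjusted p = 0.0341, adjusted p = 0.606).

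**Figure D3:**
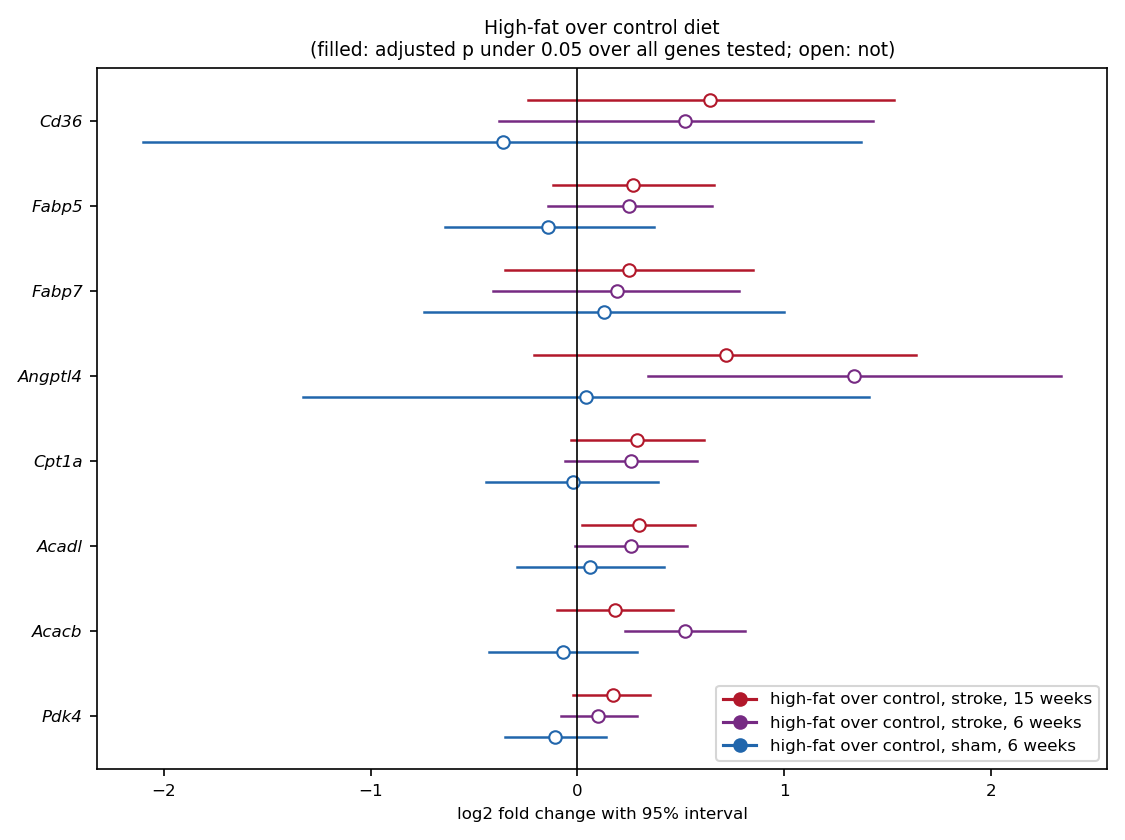
Log2 fold change of the high-fat over the control diet (horizontal axis) for each of the 8 genes in 15-week stroke (top of each trio), 6-week stroke and 6-week sham libraries, with 95% intervals. All points are open because none passed an adjusted p of 0.05. In both stroke comparisons the 8 points are above 0, and in sham libraries they lie on both sides of it.

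In sham libraries no diet difference passed the test. The log2 difference of the high-fat from the control diet was between -0.36 for Cd36 and 0.13 for Fabp7, and 3 of the 8 were above 0 (adjusted p between 0.971 and 0.999). Again 0% of all tested genes were called, with 782 under an unadjusted p of 0.05, 2 called by DESeq2 and 1 by voom, none of the 8. Pdk4 was lower in every high-fat sham library, at 9.55, 10.1 and 10.4 CPM, than in the control sham libraries, at 10.7, 10.8 and 10.8 CPM. Such a lack of overlap in that direction held for 7.00% of all tested genes, and the log2 difference of Pdk4 was -0.11 ± 0.12 (interval -0.35 to 0.14). With 3 libraries a group, the interval for Cd36 ran from -2.10 to 1.37.

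Longer feeding before stroke was examined by setting the 15-week arm against the 6-week arm within a diet. The 2 arms could also differ in age or in when they were run, which cannot be told apart from feeding time here. On the high-fat diet 6 of the 8 genes had higher means at 15 weeks and none was called, while 2.35% of all tested genes were. Cd36 averaged 12.8 ± 5.62 CPM at 15 weeks and 8.81 ± 3.96 CPM at 6 weeks (SD, 6 libraries each), a log2 difference of 0.54 ± 0.37 (adjusted p = 0.471). Fabp7 averaged 67.7 ± 26.03 CPM at 15 weeks and 69.5 ± 5.96 CPM at 6 weeks, close in mean and far apart in spread. Without the 2 15-week stroke libraries lowest in microglia and macrophage markers, 3 of the 8 genes were called higher at 15 weeks, where 10.5% of all genes tested in that fit were called: Fabp5 by 0.37 (adjusted p = 0.0435), Cpt1a by 0.35 (0.0274) and Acadl by 0.34 (0.0175). Acadl was also called without 15-week replicate 1 alone (0.0355), as were 8.01% of all genes. In the high-fat group both fits left out replicate 1 of 15 weeks, the lowest library of its group for Fabp5, Cpt1a and Acadl, and no 6-week library. The 15-week means of these 3 genes were therefore raised by the choice of libraries. With voom quality weights 11.5% of all genes were called, and of the 8 these were Cd36 by 0.88 (0.0495), Cpt1a by 0.35 (0.0292) and Acadl by 0.32 (0.0269).

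On the control diet none of the 8 genes was called between 15 and 6 weeks, while 0.564% of all tested genes were. Acacb was higher in every 15-week library, at 3.34, 3.46, 3.87 and 4.90 CPM, than in the 6-week libraries, at 2.18, 2.74, 2.90 and 3.26 CPM. Of all tested genes 3.45% showed no overlap in that direction, and its log2 difference was 0.50 ± 0.15 (unadjusted p = 0.00317, adjusted p = 0.124). The low 6-week control stroke group is the same one that lay below its shams and below 6-week high-fat stroke, so these comparisons of Acacb share its 4 libraries. Angptl4 differed by 1.12 ± 0.52 (unadjusted p = 0.0415, adjusted p = 0.278). The test of diet by weeks, whether the diet difference itself changed with duration, called none of the 8 and 0% of all tested genes, with 792 under an unadjusted p of 0.05 and 0 called by DESeq2 or voom. The difference for the 8 genes was between -0.62 ± 0.65 for Angptl4 and 0.12 ± 0.61 for Cd36.

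Within a stroke group the same libraries were often the lowest or the highest for several of the 8 genes. In 15-week high-fat stroke, replicate 1 was the lowest library for 6 of the 8 genes (Cd36, Angptl4, Fabp5, Fabp7, Cpt1a and Acadl). In 15-week control stroke, replicate 3 was the lowest for 7 of the 8 (all but Acacb). These are the 2 libraries with the lowest microglia and macrophage marker sums. At 6 weeks, high-fat replicate 2 was the highest of its group for 7 of the 8 genes and also had the highest marker sum of its group, 1142 CPM. Replicate 1 of that group was the lowest for 5 of the 8 but not in its marker sum, 866 CPM, above replicate 6 at 837 CPM. In 6-week control stroke, replicate 4 was the lowest of its group for 5 of the 8 and had the lowest sum, 605 CPM. Cd36 and Fabp7 in 15-week high-fat replicate 1, at 3.04 and 23.4 CPM, still exceeded all sham libraries, whereas Angptl4, at 3.37 CPM, lay within the sham range.

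Cell type markers moved with stroke beside these genes. The sum of 10 microglia and macrophage markers was between 837 and 1142 CPM in 6-week high-fat stroke libraries, against 299 to 347 CPM in sham libraries on that diet, and between 605 and 1003 CPM in control stroke libraries, against 318 to 344 CPM in sham libraries. All 10 were called higher on both diets, as were 10 of 10 markers of dividing cells. Of 10 markers of monocytes and infiltrating macrophages, 9 rose in high-fat stroke and 5 in control-diet stroke, and their sum was between 54.99 and 147 CPM in high-fat stroke and between 37.9 and 88.1 CPM in control stroke, against 12.3 to 15.8 CPM in all sham libraries. Between 2 and 5 of those 10 were at 0 in each sham library, and Ly6c2 and F10 were at 0 in all 3 high-fat sham libraries. In high-fat stroke, markers rose for 6 of 10 of endothelium, 6 of 9 of oligodendrocyte precursors and 4 of 10 of pericytes and smooth muscle, against 0 of 10, 0 of 9 and 1 of 10 in control-diet stroke, where fewer of all tested genes were called (7.68%, against 23.1% in high-fat stroke). For surgery by diet no gene of these 3 lists was called, and their median differences of log2 fold changes were 0.20, 0.12 and 0.13. Of 10 astrocyte markers, 3 rose and 2 fell on the high-fat diet and 2 rose and 1 fell on the control diet. Excitatory neuron markers fell for 5 of 10 in high-fat stroke and 0 of 10 in control-diet stroke, with median log2 fold changes of -0.37 and -0.19. For surgery by diet 0 of these 10 and 0 of the 10 monocyte and infiltrating macrophage markers were called. The part of these cell types in the changes of the 8 genes was not tested. Adipocyte markers, listed because several of the 8 genes are strongly expressed in fat, summed to between 7.30 and 15.7 CPM, with 3 to 5 of 10 at 0 in each library and Lep at 0 in all of them.

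**Figure D4:**
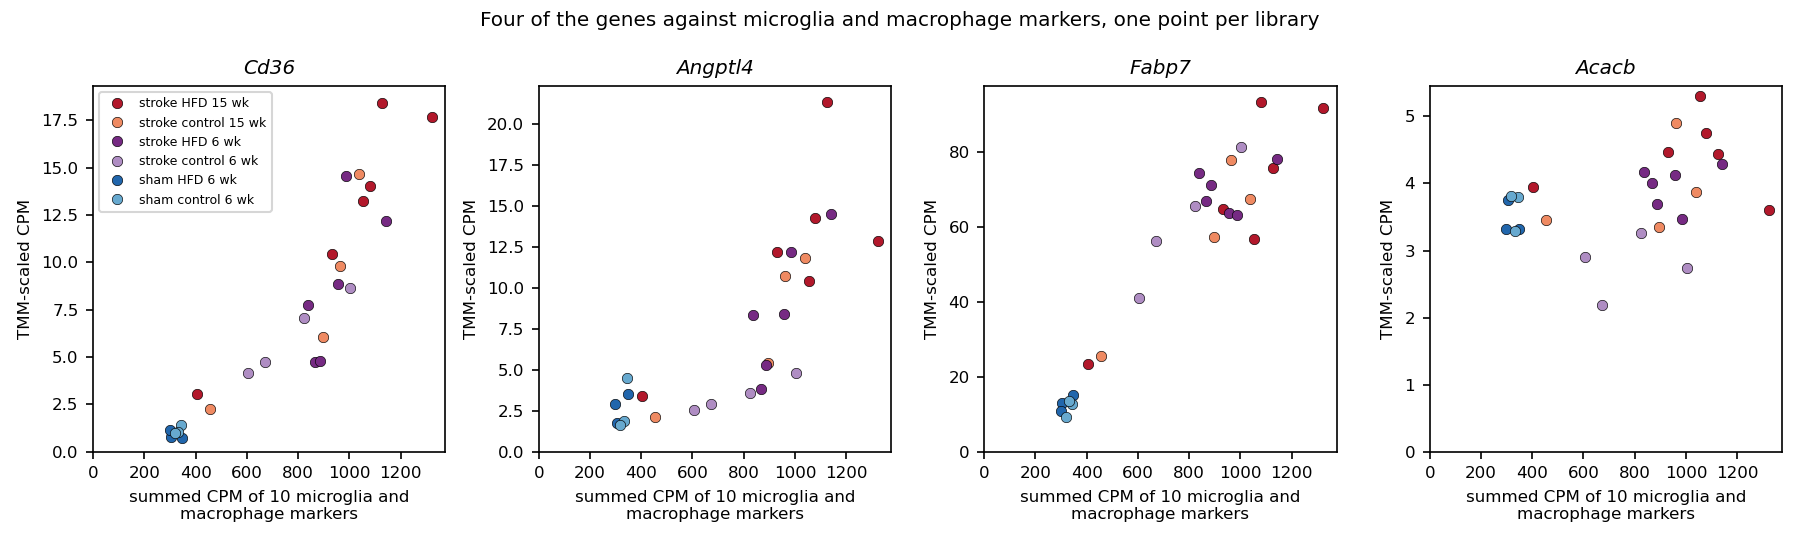
Level of Cd36, Angptl4, Fabp7 and Acacb (vertical axes, TMM-scaled CPM) against the summed CPM of 10 microglia and macrophage markers (horizontal axis), 1 point per library, coloured by group. Every stroke library has a higher marker sum, Cd36 and Fabp7 than every sham library, including the 2 15-week stroke libraries at 404 and 456 CPM of markers. Angptl4 and Acacb overlap between stroke and sham libraries. Those 2 libraries are also the lowest stroke libraries for Fabp7, at 23.4 and 25.6 CPM. Within 6-week high-fat stroke, replicate 2 is the highest for both Fabp7 (78.0 CPM) and markers (1142 CPM). The other libraries of that group do not all keep the same order. Fabp7 is 63.3 CPM in replicate 5 (985 CPM of markers) and 74.3 CPM in replicate 6 (837 CPM of markers). A link between Fabp7 and these markers was not tested. The points share depth and scaling within each library.

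Per kilobase of annotated exons, the mean levels of the carriers stood above those of the other genes in every group. In 6-week high-fat stroke the level was 55.6 CPM per kb for Fabp7, 38.2 for Fabp5, 14.1 for Acadl, 5.06 for Cpt1a, 4.00 for Pdk4, 2.48 for Angptl4, 2.45 for Cd36 and 0.411 for Acacb. Angptl4 and Cd36 did not differ there beyond their spread, with SDs of 1.14 and 1.10 CPM per kb. In high-fat sham the level was 19.6 CPM per kb for Fabp5, 10.4 for Fabp7, 9.67 for Acadl, 3.16 for Cpt1a, 2.85 for Pdk4, 0.772 for Angptl4, 0.3599 for Acacb and 0.244 for Cd36. Fabp7 and Acadl were within their spread of each other in those sham libraries, with SDs of 1.69 and 0.591 CPM per kb. Cd36 was thus the lowest of the 8 in high-fat sham and Acacb the lowest in high-fat stroke. The lengths are of all annotated exons joined, 3.567 kb for Fabp5 and 1.25 kb for Fabp7, and how much each exon is used was not measured, so the order of these carriers is not read from these values.

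By the distance between group profiles (root mean square of the difference in log2 CPM over the 6 group means, each centred on its own mean), the 3 closest of 11917 candidate genes were listed for the 4 genes with a span over 1 log2 unit. For Cd36 they were Myo1g (distance 0.10), a myosin of blood cells, Emp1 (0.11), a membrane protein, and Nuf2 (0.12), a kinetochore protein of dividing cells. For Fabp7 they were Fcrls (0.09), a microglial marker, Pycard (0.10), the inflammasome adaptor, and Lgals9 (0.10), a galectin. Those of Fabp5 were Ripk1 (0.02), a kinase of cell death signalling, Edem1 (0.03), which acts in the disposal of misfolded proteins, and Sgpl1 (0.03), the lyase that degrades sphingosine phosphate. Angptl4 had more distant neighbours, Col2a1 (0.17) and Col4a1 (0.23), both collagens, and Adam12 (0.23), a metalloprotease.

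The wider pathway was followed in 93 further genes grouped by role, of which 87 were tested. In high-fat stroke against sham 19 rose and 10 fell, 33.3% called, beside the 23.1% of all tested genes. In control stroke 4 rose and 5 fell, 10.3% called, beside 7.68%. The lists, too, were chosen with earlier results of these data known, so these shares do not test them. Across the 87 genes the median log2 fold change was 0.02 on the high-fat diet and, with the control diet, 0.01. In high-fat stroke the largest group of rises was in mitochondrial fatty acid oxidation, where 8 of 17 genes rose and none fell. In control-diet stroke 0 of these 17 were called. Among all tested genes, 14.2% were called higher in high-fat stroke and 5.10% in control-diet stroke. The median log2 fold change of the 17 was above 0 in both, at 0.24 and 0.12. For surgery by diet 0 of the 17 were called, with a median difference of 0.14, so a difference between diets was not shown. Acads, the short-chain acyl-CoA dehydrogenase, averaged 9.87 ± 1.50 CPM in stroke and 5.46 ± 0.31 CPM in sham libraries on the high-fat diet (SD, log2 fold change 0.85 ± 0.19, adjusted p = 0.00271). Hadh, which acts on short-chain hydroxyacyl-CoA, rose by 0.51 ± 0.11 (adjusted p = 0.00240), Echs1, the enoyl-CoA hydratase, by 0.41 ± 0.09 (0.00177) and Hadha, of the trifunctional protein, by 0.32 ± 0.09 (0.0118). Cpt2, the inner-membrane partner of CPT1, was at 0.59 ± 0.23 and did not pass (0.0600), and Acadm, the medium-chain dehydrogenase, was at 0.02 ± 0.06 (0.869).

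Peroxisomal oxidation genes rose for 3 of 10 on the high-fat diet, by small steps: Cat, catalase, by 0.28 ± 0.07, Crot, carnitine octanoyltransferase, by 0.33 ± 0.10, and Abcd3, a peroxisomal membrane transporter, by 0.16 ± 0.05 (adjusted p 0.00440, 0.0154 and 0.0237). On the control diet Abcd3 rose by 0.21 ± 0.06 (adjusted p = 0.0213), the only one of the 10. Among 9 other PPAR targets 4 rose on the high-fat diet. Ucp2, a mitochondrial carrier found in phagocytes, averaged 14.9 ± 4.12 CPM in stroke and 3.67 ± 0.88 CPM in sham libraries (log2 fold change 2.02 ± 0.46, adjusted p = 0.00335). Acot1, an acyl-CoA thioesterase, rose by 0.90 ± 0.24 (0.00886) and Txnip, a glucose-responsive arrestin, by 0.64 ± 0.21 (0.0304). Plin2, the lipid droplet coat protein, was the fourth, and on the control diet it rose by 2.55 ± 0.71 (adjusted p = 0.0326), while Mgll, monoacylglycerol lipase, fell by 0.37 ± 0.09 (adjusted p = 0.0184).

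**Figure D5:**
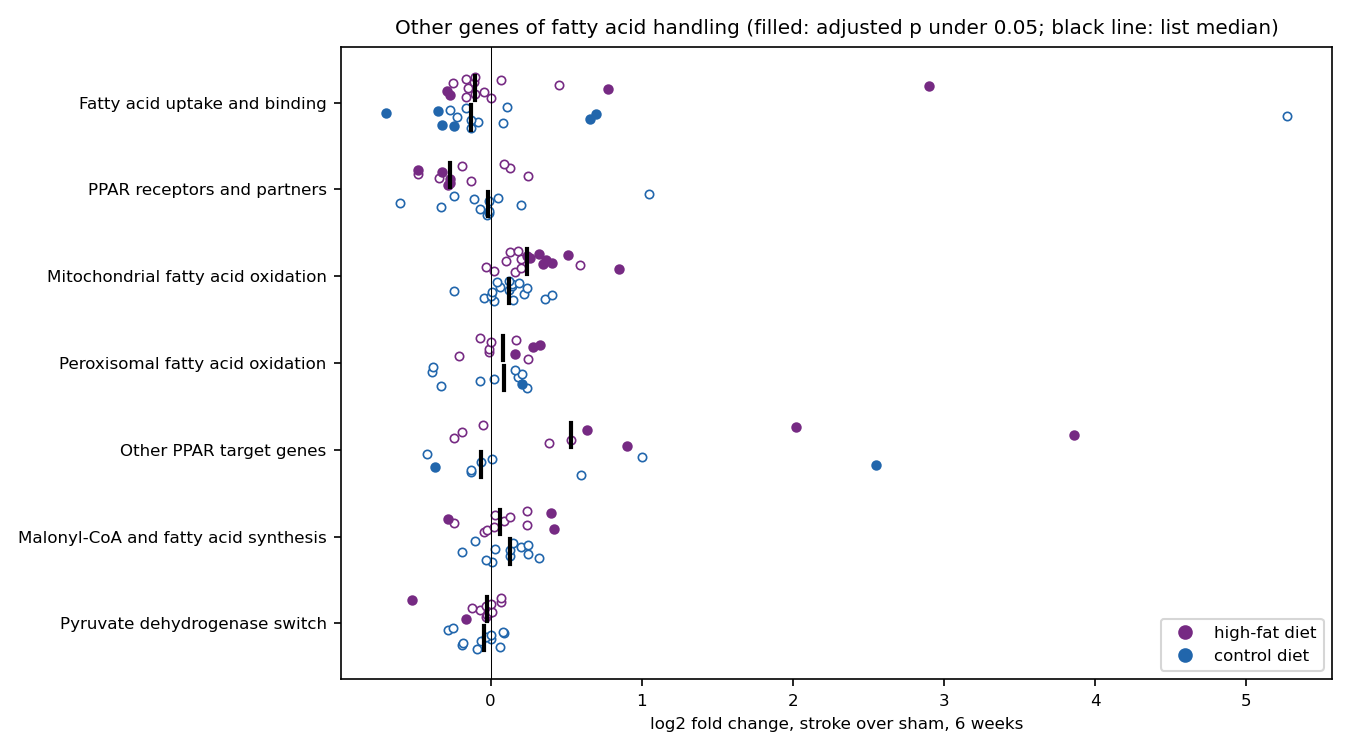
Log2 fold change of stroke over sham at 6 weeks (horizontal axis) for 87 other genes of fatty acid handling in 7 groups by role, on the high-fat diet (upper row of each pair) and the control diet, with filled points for an adjusted p under 0.05 and a black line at each median. Mitochondrial oxidation has 8 filled points above 0 on the high-fat diet and none on the control diet, while 0 of its 17 genes were called for surgery by diet. The open point at 5.27 is Fabp4, which had no count in control sham libraries, so its position is not a measured fold.

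The PPAR genes themselves did not pass the test. Of 12 genes for PPARs, their partners and cofactors, 0 rose and 5 fell on the high-fat diet, and 0 were called on the control diet. Over all tested genes 14.2% rose and 8.85% fell on the high-fat diet, and 7.68% were called on the control diet. The corepressors Ncor1 and Nrip1 each fell by 0.27 (adjusted p 0.00849 and 0.0172), and the coactivators Ppargc1b and Ppargc1a by 0.48 ± 0.16 and 0.32 ± 0.10 (0.0263 and 0.0284). Ppara, at -0.34 ± 0.18, Pparg, at -0.48 ± 0.20, and Ppard, at 0.25 ± 0.19, did not pass on the high-fat diet (adjusted p 0.184, 0.0922 and 0.372).

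Other uptake and binding genes were mixed, with 2 of 15 rising and 2 falling on the high-fat diet and 2 rising and 4 falling on the control diet. Over all tested genes 14.2% rose and 8.85% fell on the high-fat diet, and 5.10% rose and 2.57% fell on the control diet. Dbi, the acyl-CoA binding protein, rose on both, to 113.7 ± 10.1 CPM in stroke against 66.4 ± 9.41 CPM in sham libraries on the high-fat diet (SD, log2 fold change 0.78 ± 0.13, adjusted p = 3.08e-04) and by 0.66 ± 0.13 on the control diet (0.00588). Lpl, lipoprotein lipase, which the ANGPTL4 protein inhibits, rose on the control diet by 0.70 ± 0.18 (adjusted p = 0.0204) and was at 0.45 ± 0.17 on the high-fat diet (0.0527). Mfsd2a, the carrier of lysophospholipid-bound fatty acids at the blood-brain barrier, fell by 0.69 ± 0.18 on the control diet (0.0224), and Slc27a1, a fatty acid transport protein, by 0.35 ± 0.09 (0.0191). The acyl-CoA synthetases Acsl6 and Acsl3 fell by 0.29 ± 0.08 and 0.27 ± 0.08 on the high-fat diet (0.0124 and 0.0170), and Acsl3 by 0.32 ± 0.09 on the control diet (0.0276). Fabp4, the adipocyte-type carrier, was also called on the high-fat diet, at only 0.588 CPM in stroke and 0.0717 CPM in sham libraries.

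Of 12 genes of malonyl-CoA and fatty acid synthesis, 2 rose and 1 fell on the high-fat diet and 0 were called on the control diet. Here and for the next list, the shares over all tested genes were 14.2% rising and 8.85% falling on the high-fat diet. On the control diet 7.68% were called. Elovl5, an elongase of polyunsaturated fatty acids, rose by 0.42 ± 0.12 (adjusted p = 0.0121), Srebf1, a regulator of lipid synthesis, by 0.40 ± 0.12 (0.0175), and Prkaa2, a catalytic subunit of the AMP-activated kinase, fell by 0.28 ± 0.08 (0.0170). Acaca, the cytosolic counterpart of Acacb, was at -0.04 ± 0.05 (0.600). Around Pdk4, 0 of 12 other genes of pyruvate dehydrogenase control rose and 2 fell on the high-fat diet: Pdp1, the phosphatase that switches the complex back on, by 0.52 ± 0.14 (adjusted p = 0.00967) and Dlat, a core subunit, by 0.16 ± 0.06 (0.0466). None of the 12 was called on the control diet.

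Between diets none of the 87 genes was called in any comparison, and 34 of the 87, or 39.1%, had higher means on the high-fat diet at both durations of feeding in stroke. Between 15 and 6 weeks on the high-fat diet 1 of the 87 was called, Acsbg1, a brain acyl-CoA synthetase, which averaged 125 ± 12.2 CPM at 15 weeks and 149.8 ± 12.8 CPM at 6 weeks (log2 difference -0.26 ± 0.06, adjusted p = 0.0345). On the control diet it was at -0.33 ± 0.08 (adjusted p = 0.0537).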

How the data were processed

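The authors deposited 1 table of raw, whole-number counts per Ensembl gene for each library. Per the labels' protocols, Trizol was used for the extraction, and stranded total RNA libraries were read from both ends on an Illumina HiSeq. The submitters' processing notes name Trim Galore, STAR, featureCounts, HTSeq and mm9, giving neither roles nor versions. The 5 summary entries of each table, with between 45.69% and 58.16% of its counts, were left out.

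Genes passed filterByExpr with a minimum count of 10. With TMM scaling, edgeR 4.0.16 (robust quasi-likelihood, R 4.3.3) was fitted to the 26 libraries together, using the 6 group means, and p-values of each of 9 contrasts were adjusted by Benjamini-Hochberg, with a threshold of 0.05. The SE is the log2 fold change divided by the square root of F. Replicate numbers follow accession order and pair nothing. The 48 pairs of libraries within a group and the 277 between groups all differed by more than counting error (chi-square per degree of freedom 3.42 to 72.4). The fit was tested on simulated counts. Symbols and exon lengths come from GENCODE M21, which matched 37607 of 39179 identifiers, and near-identical transcripts were found with BLAST 2.17.0.

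Alternatives were RLE size factors, DESeq2 1.42.0, voom with quality weights (limma 3.58.1), no filter and a stricter filter (mean of at least 1 CPM in a group), only the groups compared, and leaving out each library or a pair of libraries that stands apart. Named pathway genes are up to 3 called per list and comparison with the smallest p, the 3 smallest p where none was called, and, chosen after their values were seen, the PPARs, Ppargc1a, Hadha, Cpt2, Acadm, Acaca and Txnip. The values of 1 gene that this rule names are not reported here. The 8 genes, the lists and the alternatives were chosen with earlier results of these data known.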

Additional observations from a re-analysis of the deposited data

How the results depend on the processing

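In high-fat stroke against sham the count of the 8 genes called was between 5 and 7 under the other settings, and between 4 and 7 when single libraries were left out. It was 4 without sham replicate 1, where 20.0% of all genes were called. In control stroke against sham, 2 as reported, the unfiltered fit called 1, voom quality weights 6 and a fit of only the groups compared 5. Of all genes tested these fits called 2.73%, 17.5% and 15.9%, against 7.68% as reported. It was between 1 and 2 when single libraries were left out. For 15 against 6 weeks on the high-fat diet, 0 as reported, it was 3 with voom (11.5% of all genes, against 2.35% as reported), 3 without the 2 15-week libraries low in microglia and macrophage markers (10.5%), and between 0 and 1 with single libraries left out. The cause was not tested. In the other comparisons it was 0 under every alternative run. Of the values of single genes, 495 kept their side of the threshold over the other settings, 4 lost a call and 13 gained one. With single libraries left out 770, 13 and 1 did so. Some values that were not called changed sign, most often Fabp5 in diet by weeks, in 10 of 28 alternative fits. No called value changed sign. No paired analysis was possible because the labels give no replicate numbers. Cd36 in sham (10 to 20 counts), Angptl4 in sham (25 to 65 counts) and Acacb (31 to 73 counts) are the genes most limited by depth, and groups of 3 or 4 libraries limit the rest.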
